A study of Mus musculus with 12 samples.

Results

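The clustered protocadherins are cell surface proteins of the cadherin superfamily whose genes stand in tandem rows called alpha, beta and gamma. They were selected from the deposited table as the protein-coding genes whose symbol has the form of Pcdha, Pcdhac, Pcdhb, Pcdhga, Pcdhgb or Pcdhgc with a number. Of 58 symbols of that form, 57 were protein coding, and all 57 were among the 47069 distinct gene identifiers of the table. They comprised 14 alpha, 22 beta and 21 gamma genes. In genome build GRCm38 (mm10) all lie on the plus strand of chromosome 18, the alpha cluster from 36930184 to 37187661, the beta cluster from 37264938 to 37524479 and the gamma cluster from 37661793 to 37841873.

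In the alpha and gamma clusters each gene has its own large variable exon, behind its own promoter, which is spliced to small constant exons common to the cluster, whereas a beta gene consists of a variable exon without constant exons. The proteins bind copies of themselves on neighbouring cells, and their combinations are best known for giving neurons a surface identity used in self-avoidance of their branches. The last genes of the alpha and gamma rows, Pcdhac1, Pcdhac2, Pcdhgc3, Pcdhgc4 and Pcdhgc5, are called C-type and are controlled differently from the others.

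Expression was measured by stranded total RNA-seq in Pdgfra/GFP+ cells isolated by FACS from Pdgfra-H2BGFP mice. All animals carried this knock-in, in which the Pdgfra locus drives nuclear GFP. Pdgfra encodes a growth factor receptor and marks oligodendrocyte precursor cells (OPCs). The 4 groups, with 3 libraries each, were (fore)brain and spinal cord at the embryonic stage E13.5 and the same regions at P7, a week after birth. Each library was made from cells pooled from several animals of both sexes, and no group carried another allele or treatment. GFP marks every cell with an active Pdgfra locus and, because the protein is stable, cells in which Pdgfra has since been shut off. E13.5 tissue was dissociated mechanically and P7 tissue with papain, so that age and dissociation cannot be told apart. Likewise, fewer cells of a type and less RNA per cell cannot be told apart in sorted pools, and the p-values below measure only the spread between these pools.

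Levels are given in CPM, the read count of a gene scaled by a library size that the authors had adjusted between libraries. The libraries held 12566345 to 38790312 reads assigned to genes, and every P7 library was deeper than every E13.5 library. The members together held 4841 to 32815 reads per library, with a median of 212 reads per member and library, and 25 of 684 values rested on fewer than 10 reads. E13.5 spinal cord replicate 3 stood apart, with a scaling factor of 0.472 and a value of 0.506 CPM for 3 reads. The OPC markers Pdgfra, Cspg4, Olig1, Olig2, Sox10 and Ptprz1 summed to 1204 to 2179 CPM in E13.5 brain, 606 to 1001 in E13.5 spinal cord, 7812 to 8728 in P7 brain and 6635 to 6667 in P7 spinal cord. The sorted cells were therefore richer in OPC transcripts at P7 than at E13.5, and their other markers are given beside the results.

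Reads from shared exons limit what can be said of single members. Of the exon bases of a gene, a median of 53.6% in the alpha cluster and 44.6% in the gamma cluster were shared with other genes on the same strand, against 0% in the beta cluster. If reads of the constant exons had been counted in full for every gene of a cluster, no member could lie below that common amount. The lowest alpha member was at 0.0878 to 0.800 CPM, and the lowest gamma member at 3.89 to 11.6 CPM, which are upper bounds on it in each library. Reads of shared exons may also have been lost, which would lower the alpha and gamma levels more than the beta levels. This loss was not tested. The values of Pcdha4 rest on only 494 unshared bases. Whether counting used the strand is not given in the sources used here. All 2613 unshared bases of Pcdhga10 lie opposite the antisense gene Gm26672. In E13.5 brain Pcdhga10 held 37.5 to 42.8 CPM, and Gm26672 held 6.97 to 8.03 CPM. GENCODE M21 gives the symbol Pcdha11 to 2 identifiers, and the first of them along the chromosome, ENSMUSG00000007440, is called Pcdha10 here, the RefSeq name at that position.

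The clusters moved in different directions between E13.5 and P7, while the summed CPM of the family changed little in brain with the deposited scaling. The deposited library sizes of P7 brain were 13.1% to 16.3% above those of TMM scaling, which would give higher P7 brain sums. The summed level of all 57 members was 831 ± 19.9 CPM (SD, n = 3) in E13.5 brain and 827 ± 34.3 CPM in P7 brain. Spinal cord held 990 ± 150 CPM at E13.5, with 1069, 1084 and 817 CPM in the single libraries, and 831 ± 12.5 CPM at P7. Within these sums the gamma share fell from between 83.7% and 84.3% in the E13.5 brain libraries to between 63.4% and 65.3% in the P7 brain libraries, with no overlap. The beta share went from between 9.9% and 10.5% to between 28.4% and 29.6%. In spinal cord the gamma share was 75.3% to 80.1% at E13.5 and 62.5% to 63.9% at P7, and the beta share 12.1% to 12.4% and 28.9% to 30.2%. At P7 the split between clusters was thus nearly the same in both regions. These are shares of assigned reads, in which genes with longer unshared exons weigh more. Reads of the constant exons may be missing from the alpha and gamma sums.

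**Figure D1:**
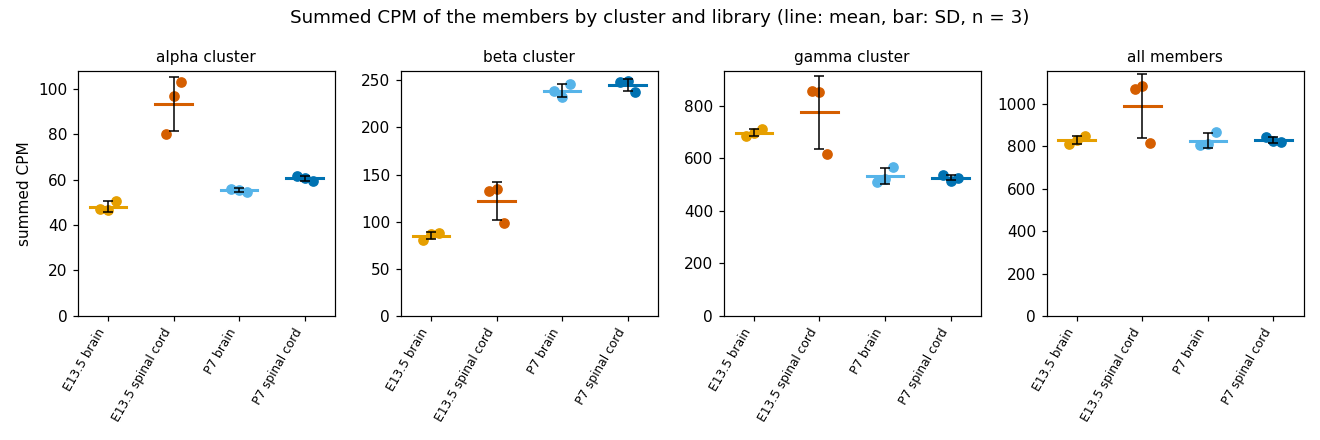
Summed CPM of the members of the alpha, beta and gamma clusters and of all 57 members in each library (points), by group on the x axis, with the mean (line) and SD (bar, n = 3). The beta sum stands at 239 and 245 CPM in P7 brain and spinal cord against 85.2 and 122 CPM at E13.5, the gamma sum is lower at P7, and 1 E13.5 spinal cord library lies at 615 CPM for gamma.

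Changes of single genes were tested with limma on log2(CPM + 0.5) over the 18319 genes that reached 0.7 CPM in 3 or more libraries. Genes were called at a Benjamini-Hochberg adjusted p under 0.05, taken over these genes, together with a change of more than 2-fold. Of the 57 members, 55 were tested. The other two, Pcdha1 and Pcdhb1, stand at the 5′ end of their rows and stayed between 0.0878 and 0.800 CPM (2 to 26 reads) and between 0.0444 and 0.589 CPM (1 to 19 reads). In brain, 18 members rose with age against 11.0% of all tested genes, and 9 fell against 16.7%. In spinal cord, 10 members rose against 16.9% of all genes, and 17 fell against 18.2%. Every beta gene called rose, 16 in brain and 9 in spinal cord, and every gamma gene called fell except Pcdhgc3, 9 in brain and 13 in spinal cord. In the alpha row Pcdhac2 rose in brain and 4 genes fell in spinal cord. Log2 differences are of log2(CPM + 0.5) throughout, so that changes of low genes come out too small.

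The beta genes formed the rising cluster. In brain 16 of 21 tested beta genes rose and none fell, with a median log2 difference of 1.30 against -0.19 over all tested genes. In spinal cord 9 of 21 rose and none fell, with a median of 0.91 against 0.12. The shares of all tested genes that rose and fell were 11.0% and 16.7% in brain and 16.9% and 18.2% in spinal cord. The P7 libraries lay above all E13.5 libraries for 21 of 21 in brain, where 27.8% of all genes did so, and for 20 of 21 in spinal cord, where 39.9% did. The exception was Pcdhb3, at 2.76 to 3.28 CPM in E13.5 and 2.70 to 2.92 CPM in P7 spinal cord. The 5 beta genes not called in brain were Pcdhb2, Pcdhb3, Pcdhb6, Pcdhb8 and Pcdhb17, with log2 differences of 0.46 to 0.99. With TMM or median-ratio scaling Pcdhb2, Pcdhb6 and Pcdhb17 were called as well, for 19 beta genes in brain, and quantile normalization called 20. In spinal cord 9 beta genes rose with TMM, 6 with median-ratio scaling and 12 with quantile normalization.

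Pcdhb10 changed most of the beta genes in both regions. Its level was 1.47, 1.45 and 2.31 CPM in the E13.5 brain libraries and 10.7, 11.8 and 10.5 CPM in P7 brain. In spinal cord it was 2.20, 2.93 and 2.70 CPM at E13.5 and 14.5, 14.2 and 14.2 CPM at P7. Every P7 library lay above every E13.5 library. The log2 difference was 2.37 ± 0.16 (SE) in brain (limma, adjusted p = 9e-08) and 2.25 ± 0.16 in spinal cord (limma, adjusted p = 8.52e-08).

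Pcdhb14 stood at 4.23, 5.01 and 4.72 CPM in E13.5 brain and at 19.1, 18.4 and 19.3 CPM in P7 brain. In spinal cord its 3 libraries went from 8.40, 7.42 and 5.06 CPM to 19.6, 20.2 and 18.0 CPM. The P7 levels of the regions overlapped while the E13.5 levels did not, and the log2 differences were 1.92 ± 0.16 in brain (limma, adjusted p = 4.33e-07) and 1.43 ± 0.16 in spinal cord (limma, adjusted p = 3.81e-06). Pcdhb18 showed 4.56, 5.53 and 6.86 CPM in E13.5 brain against 20.5, 20.9 and 21.0 CPM at P7, a log2 difference of 1.81 ± 0.18 (limma, adjusted p = 2.61e-06). In spinal cord Pcdhb18 went from 8.64, 9.47 and 5.57 CPM to 21.7, 22.7 and 24.3 CPM, a log2 difference of 1.51 ± 0.18 (limma, adjusted p = 8.66e-06). Neither gene had overlap between the ages in either region.

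Pcdhb20 had the highest level per kilobase of the beta genes, 3.26 CPM per kb over the 12 libraries. It rose from 4.51, 4.39 and 4.93 CPM to 16.1, 17.5 and 17.0 CPM in brain, with a log2 difference of 1.77 ± 0.13 (limma, adjusted p = 1.31e-07). In spinal cord it rose from 7.39, 7.02 and 8.77 CPM to 18.4, 18.4 and 14.8 CPM, with a log2 difference of 1.10 ± 0.13 (limma, adjusted p = 5.91e-06). Pcdhb9 was among the 4 largest rises in spinal cord and went from 4.05, 4.09 and 2.19 CPM to 9.48, 9.41 and 10.1 CPM there, with a log2 difference of 1.41 ± 0.19 (limma, adjusted p = 2.63e-05). It went from 2.28, 2.11 and 2.52 CPM to 8.72, 7.80 and 8.71 CPM in brain, where the log2 difference was 1.67 ± 0.19 (limma, adjusted p = 8.41e-06). For each of these genes the E13.5 and P7 libraries were separate in both regions. The other members of the cluster that rose in both regions were Pcdhb5, Pcdhb7, Pcdhb21 and Pcdhb22, with log2 differences of 1.25 to 1.65 in brain and 1.10 to 1.35 in spinal cord.

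**Figure D2:**
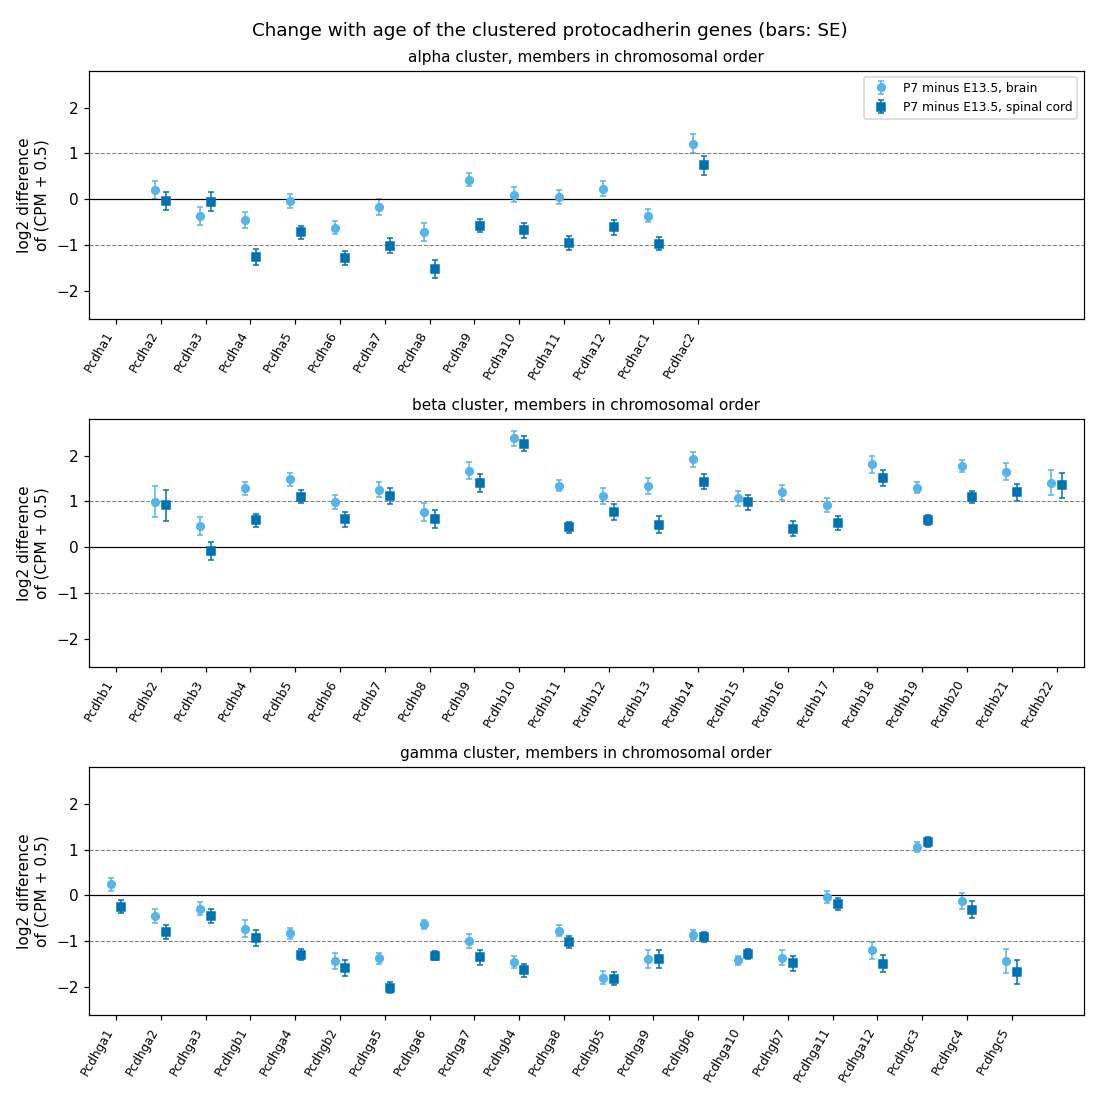
Log2 difference P7 minus E13.5 of log2(CPM + 0.5) for each tested member in chromosomal order, in brain (circles) and spinal cord (squares), with the SE as bars and dashed lines at 2-fold. Beta genes lie above 0 except Pcdhb3 in spinal cord, most gamma A and gamma B genes lie below 0, and Pcdhgc3 and Pcdhac2 stand above the rest of their clusters. Pcdha1 and Pcdhb1 were not tested and have no point.

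The gamma A and gamma B genes, whose promoters alternate along the first part of the gamma row, formed the falling set. Their summed level was 555, 565 and 551 CPM in the E13.5 brain libraries and 276, 289 and 300.4 CPM in P7 brain. In spinal cord it was 713, 706 and 484 CPM at E13.5 and 277, 269 and 282 CPM at P7. The libraries of the ages did not overlap in either region, although E13.5 spinal cord replicate 3 lay well below the other two of its group. In brain 4 of 12 gamma A genes and 4 of 6 gamma B genes fell, and none rose, against 16.7% and 11.0% of all tested genes. In spinal cord 8 of 12 gamma A genes and 4 of 6 gamma B genes fell, and none rose, against 18.2% and 16.9%. In the gamma row 17 of 21 genes had all P7 brain libraries below all E13.5 brain libraries, as did 44.9% of all tested genes, and 16 of 21 in spinal cord, as did 30.8%. Over all 21 gamma genes the median log2 difference was -0.85 in brain, against -0.19 over all genes, and -1.29 in spinal cord, against 0.12.

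Pcdhgb5 had the largest fall in brain and was second in spinal cord. It was measured at 53.0, 57.4 and 47.8 CPM in E13.5 brain and at 14.7, 13.9 and 16.2 CPM in P7 brain. Its level in spinal cord was 61.4, 68.9 and 44.5 CPM, then 14.8, 15.5 and 17.7 CPM. Every P7 value was below every E13.5 value, with log2 differences of -1.79 ± 0.15 in brain (limma, adjusted p = 4.19e-07) and -1.81 ± 0.15 in spinal cord (limma, adjusted p = 2.23e-07). Pcdhgb4, 2 places before it in the row, went from 43.8, 43.8 and 42.3 CPM to 14.2, 14.8 and 17.8 CPM in brain, a log2 difference of -1.45 ± 0.14 (limma, adjusted p = 1.65e-06). In spinal cord Pcdhgb4 went from 57.1, 56.3 and 39.1 CPM to 15.1, 15.8 and 16.8 CPM, a log2 difference of -1.63 ± 0.14 (limma, adjusted p = 3.64e-07). Both genes reached about the same P7 level in brain and spinal cord.

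The largest fall in spinal cord was that of Pcdhga5. Its spinal cord libraries held 28.8, 27.0 and 23.5 CPM at E13.5 and 5.78, 7.16 and 5.68 CPM at P7, a log2 difference of -2.01 ± 0.12 (limma, adjusted p = 1.34e-08). In brain it was at 20.7, 19.2 and 19.9 CPM and then at 7.18, 7.51 and 7.47 CPM, a log2 difference of -1.37 ± 0.12 (limma, adjusted p = 6.55e-07). Neither region showed overlap between the ages. Pcdhgb2 went from 27.0, 28.2 and 29.2 CPM to 10.3, 9.32 and 11.0 CPM in brain (log2 difference -1.42 ± 0.17, limma, adjusted p = 1.47e-05), and by -1.59 ± 0.17 in spinal cord (limma, adjusted p = 3.7e-06). The other genes of the set that fell in both regions were Pcdhga9, Pcdhga10, Pcdhgb7 and Pcdhga12, with log2 differences of -1.20 to -1.41 in brain and -1.27 to -1.49 in spinal cord. For Pcdhga10 the antisense gene Gm26672 also moved, from between 6.97 and 8.03 CPM to between 2.64 and 3.18 CPM in brain, and its part in the values of Pcdhga10 was not tested.

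Not all gamma A genes were called. Pcdhga11, at position 17 of the 21 gamma members, held 38.6, 44.7 and 43.3 CPM in E13.5 brain and 39.1, 41.7 and 43.4 CPM in P7 brain. Its spinal cord values were 46.9, 46.7 and 31.9 CPM at E13.5 and 36.9, 35.8 and 35.4 CPM at P7. The ages overlapped in both regions. Its log2 difference was -0.03 in brain with a 95% interval of -0.31 to 0.26, and -0.19 in spinal cord with an interval of -0.48 to 0.09, both of which exclude a 2-fold change. Its neighbours among the members, Pcdhgb7 and Pcdhga12, fell in both regions. Of its 2637 unshared bases, 1381 lie opposite Gm26672. At the 5′ end of the row, Pcdhga1 and Pcdhga3 had log2 differences of 0.25 and -0.29 in brain and -0.24 and -0.45 in spinal cord, with intervals that also exclude a 2-fold change.

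Pcdhgb8, whose symbol has the same form, was left out because the annotation types it as a polymorphic pseudogene. It stood at 21.1 to 22.6 CPM in E13.5 brain and 4.36 to 6.76 CPM in P7 brain, and at 19.4 to 31.6 and 5.03 to 5.58 CPM in spinal cord. It fell with log2 differences of -1.93 in brain (limma, adjusted p = 1.99e-06) and -2.24 in spinal cord (limma, adjusted p = 3.24e-07), and so moved in the direction of the gamma B genes.

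The 5 C-type genes did not move together. Pcdhgc3, the first of the 3 gamma C-type genes, held 94.0, 97.8 and 127 CPM in E13.5 brain and 211, 211 and 240.1 CPM in P7 brain. The spinal cord libraries held 98.9, 97.0 and 107 CPM at E13.5 and 236, 224 and 219.7 CPM at P7. It was the only gamma gene called higher at P7 in either region, with log2 differences of 1.06 ± 0.11 in brain (limma, adjusted p = 4.67e-06) and 1.16 ± 0.11 in spinal cord (limma, adjusted p = 1.33e-06). In brain its change passed 2-fold by little, and without E13.5 brain replicate 1 or P7 brain replicate 3 it was 0.98 and 1.00 on the log2 scale, no longer past the fold threshold. Per kilobase of unshared exon it was the highest member of the family, at 31.5 and 29.9 CPM per kb in E13.5 brain and spinal cord and at 65.3 and 67.0 at P7. It made up 12.2% to 15.8% of the summed gamma level per kilobase in the E13.5 brain libraries and 36.1% to 38.4% in P7 brain. Of its unshared bases, 1559 lie opposite the antisense gene BC037039, which was at 1.07 to 1.69 CPM at E13.5 and 3.24 to 4.10 CPM at P7.

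Pcdhgc5, the last gene of the gamma row, went the other way. Its values were 14.3, 15.6 and 12.2 CPM in E13.5 brain and 4.67, 4.03 and 6.05 CPM in P7 brain, a log2 difference of -1.43 ± 0.26 (limma, adjusted p = 0.000431). In spinal cord they were 18.6, 18.0 and 8.10 CPM and then 3.92, 3.89 and 4.47 CPM, a log2 difference of -1.66 ± 0.26 (limma, adjusted p = 0.0001). The ages did not overlap, and replicate 3 was the lowest of the E13.5 spinal cord libraries. Pcdhgc4, between them, held 21.0, 19.2 and 21.8 CPM in E13.5 brain and 18.3, 19.0 and 19.5 CPM in P7 brain. In spinal cord Pcdhgc4 held 26.8, 30.9 and 16.2 CPM and then 18.7, 18.6 and 20.0 CPM. It was not called, at -0.12 ± 0.18 in brain (95% interval -0.51 to 0.27) and -0.31 ± 0.18 in spinal cord (-0.70 to 0.08), and its sign in brain turned with TMM or median-ratio scaling.

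In the alpha row the C-type genes differed from each other as well. Pcdhac2, the last alpha gene, held 5.61, 5.05 and 9.39 CPM in E13.5 brain and 15.8, 17.5 and 13.8 CPM in P7 brain, and it rose by a log2 difference of 1.22 ± 0.20 (limma, adjusted p = 0.0002). The spinal cord libraries held 7.33, 9.07 and 10.3 CPM and then 14.9, 16.4 and 14.0 CPM, a log2 difference of 0.74 ± 0.20 (limma, adjusted p = 0.00564) that stayed under 2-fold. The ages did not overlap in either region. Pcdhac1, just before it in the row, was at 4.09, 4.26 and 4.56 CPM in E13.5 brain and 3.64, 2.94 and 3.17 CPM in P7 brain, a log2 difference of -0.36 ± 0.14 (limma, adjusted p = 0.0433). Pcdhac1 in spinal cord was at 6.31, 8.18 and 7.76 CPM and then at 3.56, 3.33 and 3.75 CPM, a log2 difference of -0.96 ± 0.14 (limma, adjusted p = 5.71e-05). Neither change of Pcdhac1 was called. On the CPM scale itself its spinal cord means were 7.42 and 3.55 CPM, and Pcdhac1 was called lower in spinal cord with limma-voom, edgeR, DESeq2, a pseudocount of 0.1, median-ratio scaling or without E13.5 spinal cord replicate 1.

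**Figure D3:**
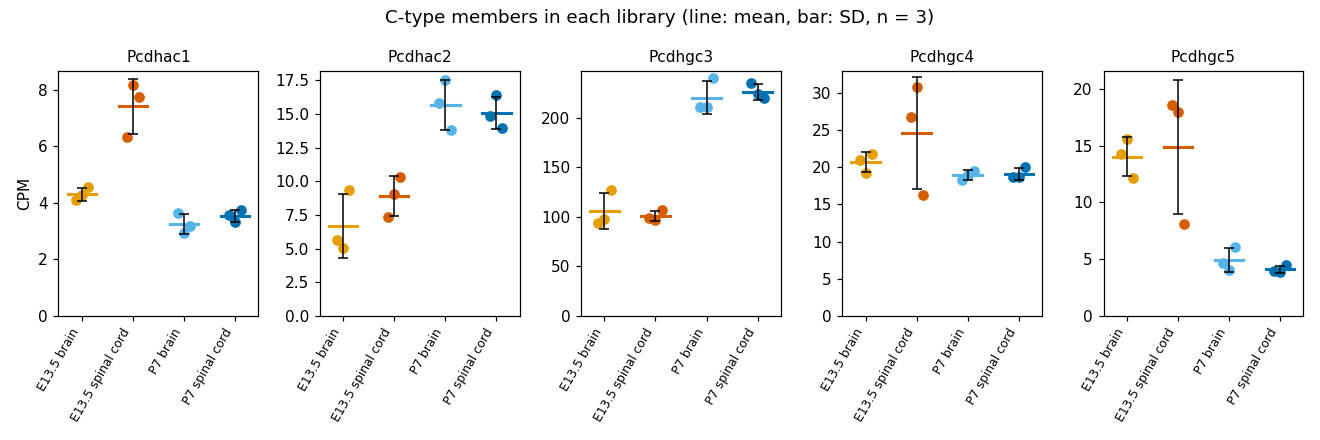
CPM of the 5 C-type members in each library (points), by group on the x axis, with the mean (line) and SD (bar, n = 3), each panel with its own y axis from 0. Pcdhac2 and Pcdhgc3 are higher at P7 in both regions, Pcdhgc5 is lower, Pcdhac1 is highest in E13.5 spinal cord, and Pcdhgc4 overlaps between the ages.

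Pcdha2 to Pcdha12 are the alpha genes before the C-type ones. In brain none of the 11 tested was called, and their log2 differences ran from -0.70 for Pcdha8 to 0.43 for Pcdha9. In spinal cord Pcdha4, Pcdha6, Pcdha7 and Pcdha8 fell and none rose, and all 11 had negative differences, from -0.03 to -1.51. Of all tested genes 16.7% fell and 11.0% rose in brain, and 18.2% fell and 16.9% rose in spinal cord. Pcdha8 held 6.67, 7.96 and 7.76 CPM in E13.5 spinal cord and 2.86, 1.88 and 2.20 CPM at P7, a log2 difference of -1.51 ± 0.19 (limma, adjusted p = 1.73e-05). Pcdha6 held 6.37, 8.13 and 7.59 CPM and then 2.70, 2.84 and 2.67 CPM, a log2 difference of -1.28 ± 0.14 (limma, adjusted p = 5.09e-06). Pcdha7 fell by 1.00 ± 0.17 on the log2 scale, just past the threshold (limma, adjusted p = 0.00019). The low gene Pcdha4, at 1.07 to 1.69 CPM and then 0.162 to 0.401 CPM, had a difference of -1.25 ± 0.18 (limma, adjusted p = 4.51e-05). The difference between the regions in the change with age, tested directly as an interaction, called none of the 11 genes. It had an adjusted p under 0.05 with a change under 2-fold for 9 of them, the exceptions being Pcdha2 at 0.23 and Pcdha3 at -0.31 on the log2 scale (limma, adjusted p = 0.54 and 0.423).

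The counts in spinal cord depended on E13.5 spinal cord replicate 3. Without it 7 members rose, 6 of them beta genes, and 19 fell, 16 of them gamma genes, in place of 10 and 17. Pcdhb7, Pcdhb21, Pcdhb22 and Pcdha7 were then no longer called, and Pcdhga2, Pcdhgb1 and Pcdhgb6 were added among those that fell. With median-ratio scaling 7 members rose and 21 fell in spinal cord, so that 25.0% of the called members were higher, against 37.0% with the deposited scaling.

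Between the regions at E13.5 the alpha genes stood out. Their summed level was 46.9, 46.7 and 50.7 CPM in the E13.5 brain libraries and 80.2, 96.7 and 103 CPM in E13.5 spinal cord, with no overlap. Of 55 members, 3 were called lower in brain than in spinal cord, against 5.17% of all tested genes, and 0 were called higher, against 3.53%. The 3 were Pcdha6, Pcdha7 and Pcdha8, which are neighbours. Pcdha8 was at 3.09, 4.08 and 2.57 CPM in brain and at 6.67, 7.96 and 7.76 CPM in spinal cord, a log2 difference of -1.10 ± 0.19 (limma, adjusted p = 0.000957). Pcdha7 was at 3.71, 4.61 and 4.83 CPM against 8.46, 8.49 and 12.8 CPM, a log2 difference of -1.08 ± 0.17 (limma, adjusted p = 0.000464). Pcdha6 was at 3.04, 3.43 and 3.38 CPM against 6.37, 8.13 and 7.59 CPM, a log2 difference of -1.05 ± 0.14 (limma, adjusted p = 0.000149).

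The 3 calls lay close to the fold threshold, and each was lost without 1 library: Pcdha7 without E13.5 brain replicate 1 or E13.5 spinal cord replicate 3, Pcdha8 without E13.5 brain replicate 3 and Pcdha6 without E13.5 spinal cord replicate 2. Without E13.5 spinal cord replicate 1, Pcdha4, Pcdha9 and Pcdha10 were added, for 6 calls, and limma-voom, edgeR and DESeq2 each called 7 members, all of them alpha genes. All 13 tested alpha genes had a negative difference. Of the 13 tested alpha genes, 12 had all E13.5 brain libraries below all E13.5 spinal cord libraries, as did 17.2% of all tested genes, and 11 had an adjusted p under 0.05. The median log2 difference was -0.92 in the alpha row, -0.48 in the beta row and -0.16 in the gamma row, against 0.05 over all tested genes. In the beta row 20 of 21 differences were negative, 12 of them with an adjusted p under 0.05, and in the gamma row 3 were. Without the fold threshold 26 members were called, all lower in brain. Spearman's rho between position along the row and this difference was 0.29 over 13 alpha, -0.29 over 21 beta and 0.74 over 21 gamma genes at E13.5, and 0.83, -0.26 and -0.10 for the P7 difference, a description over genes measured in the same libraries.

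At P7 the rows differed less between the regions with the deposited scaling. The median log2 difference between brain and spinal cord was -0.16 in the alpha, -0.03 in the beta and 0.04 in the gamma row, against -0.19 over all tested genes. These medians depend on the scaling, and with TMM the median of all tested genes was -0.02. No member was called in either direction by limma, edgeR or DESeq2, against 2.27% of all genes higher and 4.35% lower in brain by limma, and 5 members had an unadjusted p under 0.05. Pcdha2 and Pcdha3 had an adjusted p under 0.05 (limma, 0.037 and 0.0119) with changes under 2-fold, at -0.60 ± 0.20 and -0.79 ± 0.20 on the log2 scale. Pcdhgc3 differed by -0.04 ± 0.11, with a 95% interval of -0.28 to 0.21, Pcdhb10 by -0.37 ± 0.16 with an interval of -0.72 to -0.01, and Pcdhgb5 by -0.10 ± 0.15 with an interval of -0.41 to 0.22. For these 3 genes a 2-fold difference between the regions lies outside the interval.

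**Figure D4:**
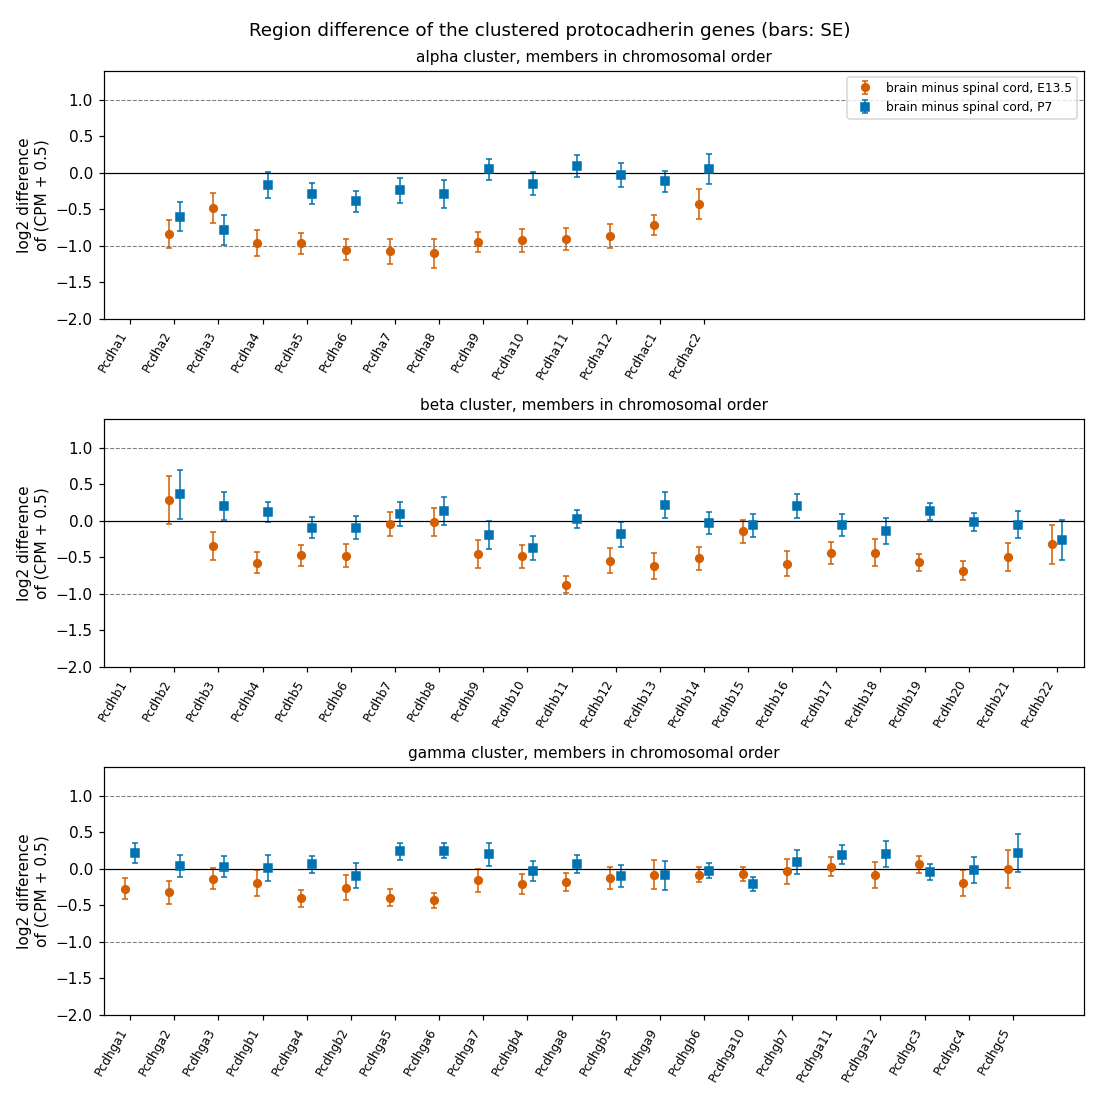
Log2 difference brain minus spinal cord of log2(CPM + 0.5) for each tested member in chromosomal order, at E13.5 (circles) and at P7 (squares), with the SE as bars and dashed lines at 2-fold. At E13.5 the alpha genes lie between -1.10 and -0.42 and most beta genes below 0, and at P7 most members lie near 0, with Pcdha2 and Pcdha3 lowest.

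Whether the region difference changed with age was tested as an interaction, taking brain minus spinal cord at P7 and subtracting the E13.5 value. No member was called by limma, against 6.66% of all genes called higher and 9.66% lower, while edgeR and DESeq2 each called 3 of 55. The 3 were Pcdha9, Pcdha11 and Pcdhb13 with either tool, all higher. Of the 18319 tested genes, edgeR called 1318 higher and DESeq2 1379. In the limma fit 21 members had an unadjusted p under 0.05, and 19 had an adjusted p under 0.05 with a change under 2-fold, all of them positive. Of those 19, 10 were alpha genes. The largest were Pcdha9 at 1.00 ± 0.20 (limma, adjusted p = 0.00184) and Pcdha11 at 0.99 ± 0.22 (limma, adjusted p = 0.00329), followed by Pcdhb11 at 0.90 ± 0.17 (limma, adjusted p = 0.00122). The median was 0.77 in the alpha row, 0.38 in the beta row and 0.19 in the gamma row, against -0.24 over all genes. The number past 2-fold depended on the scaling. The deposited library sizes of P7 brain were 13.1% to 16.3% above those of TMM, and those of the other 9 libraries matched TMM. With TMM the median of all genes moved from -0.24 to -0.07 and 6 of 55 members were called, and with median-ratio scaling 11 were, all higher. Of all 18319 tested genes, 1509 were called higher with TMM and 1803 with median-ratio scaling.

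Along the rows the level per kilobase of unshared exon was lowest at the 5′ end of the alpha and beta clusters. Pcdha1 stood at 0.0715 to 0.251 CPM per kb and Pcdhb1 at 0.0351 to 0.176 CPM per kb in the group means. Pcdhac2 at the 3′ end was the highest alpha gene over the 12 libraries, at 3.83 CPM per kb, and it ranked first in each group but E13.5 spinal cord, where it ranked 7th of 14. Spearman's rho between position and level per kilobase was 0.53 to 0.82 in the alpha row, 0.55 to 0.67 in the beta row and 0.13 to 0.32 in the gamma row, over 14, 22 and 21 members that share libraries and the annotation's exon lengths.

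**Figure D5:**
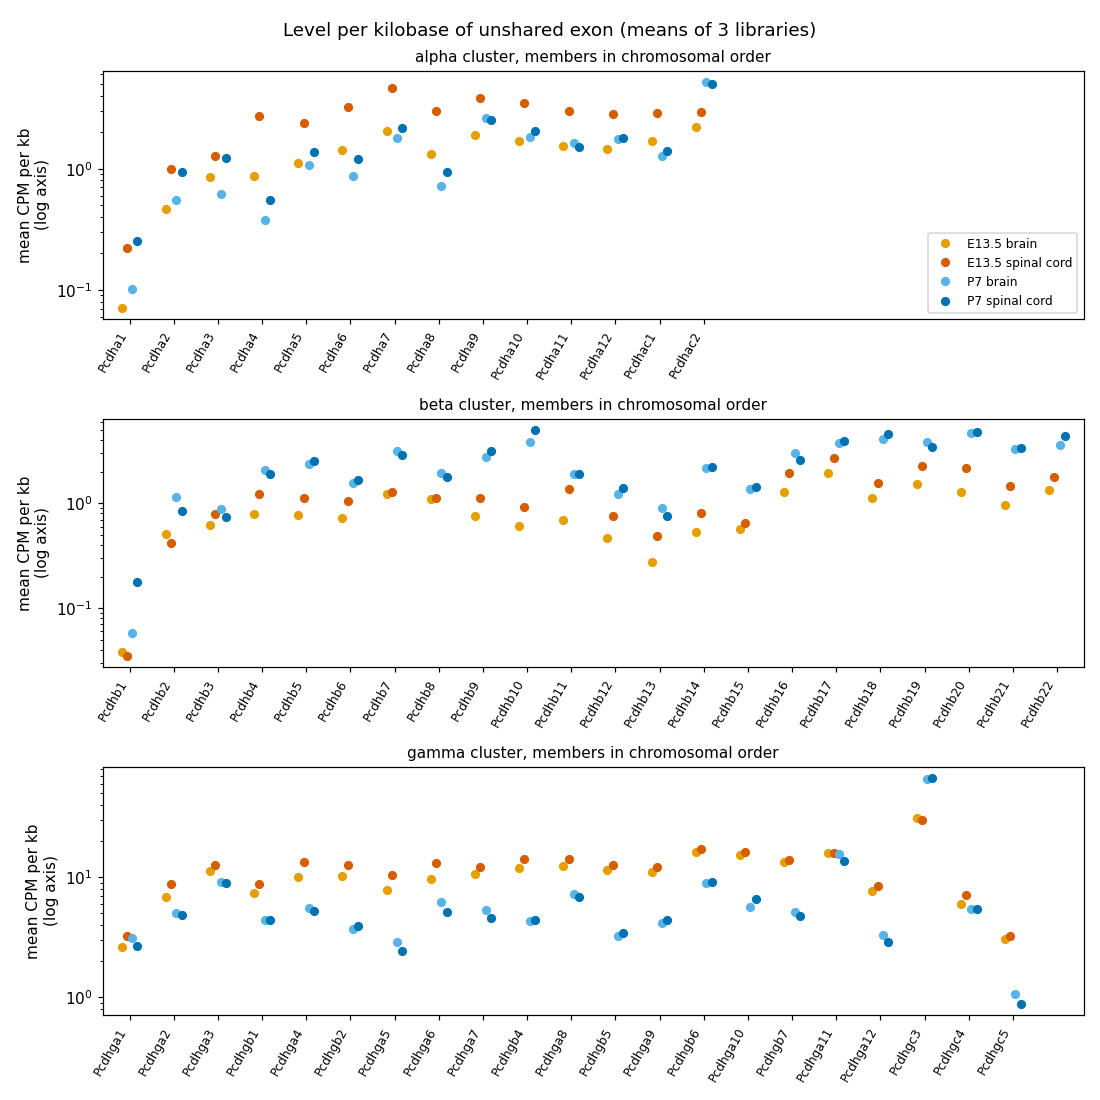
Mean CPM per kilobase of unshared exon (log axis, n = 3 libraries) for each of the 57 members in chromosomal order, with 1 point per group. Pcdha1 and Pcdhb1 are the lowest of their rows, Pcdhgc3 is the highest of the family in each group, and Pcdhgc5 drops at P7.

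The gamma row was spread over fewer members at P7 than at E13.5. The effective number of members, the exponential of the Shannon entropy of their shares per kilobase, was 17.9 to 18.9 of 21 gamma genes in E13.5 brain and 11.4 to 11.9 in P7 brain. In spinal cord it was 18.0 to 19.5 at E13.5 and 10.9 to 11.6 at P7. Over the gamma A and gamma B genes alone it was 16.9 to 17.3 of 18 at E13.5 and 16.0 to 16.3 at P7 in the 6 libraries of each age, and so changed less. In the beta row the index was 18.5 to 19.4 of 22 in the 12 libraries, and in the alpha row 12.1 to 12.7 of 14 at E13.5 and 9.78 to 11.7 at P7.

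The nonclustered protocadherins, adhesion proteins encoded by genes outside these rows, were mostly called higher at P7. Of 12 tested, 8 rose and 1 fell in brain, where 11.0% of all tested genes rose and 16.7% fell, and 9 rose and 1 fell in spinal cord, where 16.9% rose and 18.2% fell. Their median log2 differences were 1.72 and 2.06, against -0.19 and 0.12 over all tested genes. Pcdh20 rose in brain to 91.1 ± 15.2 CPM from 3.54 ± 0.33 and in spinal cord to 93.9 ± 8.03 CPM from 2.39 ± 0.86, log2 differences of 4.49 and 5.07 (limma, adjusted p = 1.58e-09 and 4.5e-10). Pcdh18 went the other way, falling to 14.9 ± 1.38 CPM in P7 brain from 262 ± 48.2 and to 21.7 ± 4.59 CPM in P7 spinal cord from 327 ± 41.2 (limma, log2 differences -4.08 and -3.89, adjusted p = 1.12e-09 and 9.79e-10). None of the 12 was called between the regions at either age.

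Factors known for choosing clustered protocadherin promoters, among them CTCF, cohesin and DNA methyltransferases, were tested as a list of 25. None rose, against 11.0% of all tested genes in brain and 16.9% in spinal cord, and 2 fell in each region, against 16.7% and 18.2%. The median log2 differences were -0.53 in brain and -0.08 in spinal cord, against -0.19 and 0.12 over all tested genes. Dnmt3b, a de novo DNA methyltransferase, fell in both, from 11.2 ± 1.39 to 3.70 ± 0.41 CPM in brain (limma, log2 difference -1.48, adjusted p = 1.42e-06) and from 10.4 ± 1.00 to 4.61 ± 0.26 CPM in spinal cord (-1.09, adjusted p = 1.37e-05). Tet3, which oxidises methylated cytosine, fell by 1.00 on the log2 scale in brain and the cohesin regulator Pds5b by 1.03 in spinal cord, both at the threshold. Dnmt1, the maintenance methyltransferase, was the only gene of the list called in the interaction, at -1.03 (limma, adjusted p = 0.00012), and it was under 2-fold with TMM, median-ratio or quantile scaling, at -0.65 to -0.83.

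Among 19 genes of binding partners and proteins that act on or below the clustered protocadherins, 6 rose and none fell in brain, against 11.0% and 16.7% of all tested genes, and 7 rose and 1 fell in spinal cord, against 16.9% and 18.2%. Their medians were 0.54 and 0.72 on the log2 scale, against -0.19 and 0.12. The kinase gene Fyn reached 764 ± 179 CPM in P7 brain against 129 ± 23.6 before and 1078 ± 4.46 CPM in P7 spinal cord against 99.7 ± 13.3 before (limma, log2 differences 2.56 and 3.44, adjusted p = 7.59e-08 and 3.65e-09). Nlgn1, a synaptic adhesion gene, rose by log2 differences of 2.13 and 1.77. Ret, the gene of a receptor kinase that forms complexes with these protocadherins, was higher in E13.5 spinal cord (7.43 ± 2.38 CPM) than in E13.5 brain (1.19 ± 0.25 CPM), a log2 difference of -2.20 (limma, adjusted p = 3.44e-05). Ret was the only gene of the list called between the regions at E13.5. Of the 19 genes, 13 had positive and 6 negative differences in that comparison, with a median of 0.11, against 0.05 over all tested genes. The kinase gene Ptk2b was the only one of the list called between the regions at P7, at 3.04 ± 0.69 CPM in brain and 0.65 ± 0.21 CPM in spinal cord (limma, log2 difference 1.62, adjusted p = 0.000132).

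Markers of other cells also differed between the groups. The 10 neuronal markers summed to 803 to 1002 CPM in E13.5 brain, 870 to 1127 in E13.5 spinal cord, 461 to 498 in P7 brain and 518 to 550 in P7 spinal cord. With age 2 of the 10 fell in brain and none rose, near the 16.7% and 11.0% of all tested genes, and 6 fell and 1 rose in spinal cord, against 18.2% and 16.9%. At E13.5 2 were called lower in brain than in spinal cord, against 5.17% of all tested genes. The 7 pericyte and leptomeningeal markers summed to 2581 to 3705, 5337 to 5798, 693 to 918 and 646 to 1302 CPM in the same order of groups. The sums, most of which came from Col1a1 and Col1a2, were higher at E13.5 than at P7 and higher in spinal cord than in brain at E13.5. With age 5 of 7 fell and 1 rose in brain, against 16.7% and 11.0% of all tested genes. In spinal cord 7 of 7 fell, against 18.2%. At E13.5 4 of 7 were called lower in brain, against 5.17%. The exceptions were Rgs5, which rose with age in brain from a mean of 6.48 to 15.5 CPM (limma, log2 difference 1.16, adjusted p = 0.00487), and Lum, at 474 CPM in E13.5 brain against 282 CPM in E13.5 spinal cord (limma, log2 difference 0.75, adjusted p = 0.0493, under 2-fold). The 6 oligodendrocyte markers summed to 20.4 to 62.9, 14.7 to 23.6, 1383 to 3510 and 17810 to 23830 CPM. No neuronal, pericyte or oligodendrocyte marker was at 0 throughout a group. However, 3 of the 6 oligodendrocyte markers stayed under 1 CPM in all E13.5 spinal cord libraries, and 1 in all E13.5 brain libraries. Of the pericyte and leptomeningeal markers 1 did so in P7 brain. The part of neuronal, pericyte and oligodendrocyte cells in the changes of the clustered protocadherins was not tested. At P7 all 6 oligodendrocyte markers were called lower in brain than in spinal cord, against 4.35% of all tested genes.

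Radial glia, endothelial, microglial and erythroid markers were measured as well. The 5 radial glia and astrocyte markers summed to 669 to 901, 565 to 675, 1013 to 1440 and 712 to 797 CPM in E13.5 brain, E13.5 spinal cord, P7 brain and P7 spinal cord. With age 4 of these 5 rose and none fell in brain, against 11.0% and 16.7% of all tested genes. In spinal cord 3 rose and 1 fell, against 16.9% and 18.2%. The 3 endothelial markers summed to 25.6 to 40.5, 70.9 to 94.7, 18.4 to 23.6 and 13.1 to 16.6 CPM in that order. The 5 microglial markers summed to 5.84 to 8.63, 10.5 to 13.4, 23.1 to 52.0 and 3.69 to 11.8 CPM. With age all 5 rose in brain, against 11.0% of all tested genes, with a median log2 difference of 1.88. In spinal cord 1 rose, against 16.9%. The 4 erythroid markers summed to at most 110.2 CPM in any library, and 1 erythroid marker was at 0 in each P7 group. Their part in the values of the members was likewise not tested.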

How the data were processed

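Stranded total RNA libraries from 12 pools were aligned by the authors with STAR 2.5.0a to mm10 and counted over GENCODE M8 genes by featureCounts 1.5.0-p1, with reads of several places shared fractionally and rounded. The authors deposited CPM, not log transformed, computed with rescaled library sizes. In 3 columns these sizes are below the read number, so that the deposited values sum to more than plain CPM can and are handled as a normalized signal. All values (100%, tolerance 0.01 read) were whole multiples of 1 read, so read counts were recovered, and 0 columns were left unused.

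Groups and replicate numbers came from the sample titles. Symbols, exons and gene types came from GENCODE M21, with a record for 46488 of 47069 identifiers. Unshared exon bases are those not in exons of another gene on the same strand. limma 3.58.1 (R 4.3.3) was fitted with an intensity trend and 1 mean per group to all 12 libraries, in place of the study's voom because CPM had been foreseen. The recovered reads were also tested with limma-voom, edgeR 4.0.16 (quasi-likelihood) and DESeq2 1.42.0. Over all genes edgeR called 2270 higher and 3889 lower for age in brain, 3402 and 4099 for age in spinal cord, 845 and 1237 for region at E13.5, 656 and 989 for region at P7, and 1318 and 1943 for the interaction. The scripts were tested on simulated counts. Other alternatives were TMM, median-ratio and quantile scaling, pseudocounts of 0.1 and 1, no filter, no fold threshold, a replicate block, leaving out each library, and averaging P7 replicates 1 and 2. Counting intervals and floors cover counting error only.

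The members, gene lists and tests were chosen with earlier results of these data known. Full values were given for the C-type genes, for the 4 largest called changes in each direction of each comparison and for the member highest per kilobase in each row. Genes of other lists were named where called, at most 4 per list and comparison. No nucleotide or protein sequence is printed.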

Additional observations from a re-analysis of the deposited data

How the results depend on the processing

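The number of members called with age ranged from 25 to 30 when single libraries were left out in brain (27 with all) and from 25 to 30 in spinal cord (27 with all), and it was 43 and 49 without the fold threshold. In brain 21 members rose with age and 9 fell with TMM or median-ratio scaling, and 22 and 9 with quantile normalization. With limma-voom, edgeR or DESeq2 20 rose and 11 fell there. For brain minus spinal cord at E13.5, 3 members were called with all libraries, 2 to 6 with single libraries left out, 7 with median-ratio scaling, a pseudocount of 0.1, limma-voom, edgeR or DESeq2, and 26 without the fold threshold. At P7 the count of 0 became 2 without the fold threshold and remained 0 under the other alternatives run. For the interaction 0 members were called, against 6 with TMM, 11 with median-ratio scaling, 4 with quantile normalization, 3 with a pseudocount of 0.1, limma-voom, edgeR or DESeq2, 2 with P7 replicates 1 and 2 averaged, 19 without the fold threshold and 0 to 2 with single libraries left out. Over all 18319 tested genes the interaction called 1509 higher with TMM, 1803 with median-ratio scaling and 1491 with quantile normalization. The log2 difference of Pcdhgc4 with age in brain turned to 0.064 with TMM and 0.066 with median-ratio scaling. Pcdhgc3 in spinal cord lay under 2-fold with quantile normalization, at 0.83. The causes of these differences were not tested. With the replicate block the counts were 27, 27, 3, 0 and 0, and it changed no call of a member. The sample titles do not say whether same-numbered libraries were paired. Within an age the deviations of same-numbered libraries correlated at -0.003 to 0.55 (mean 0.197), and those of other numbers at -0.6 to 0.326 (mean -0.091). Same-numbered brain and spinal cord libraries stood at 0.478, 0.094 and 0.55 at E13.5, so that pairing there remains possible, and at -0.003, 0.011 and 0.053 at P7. Between ages same-numbered libraries stood at -0.306 to 0.085. The block was common to both ages and was not fitted to E13.5 alone. Of the log2 differences of named members under these alternatives, 652 kept their direction and side of the threshold, 9 moved past it, 9 dropped below it and 2 turned. Depth limits Pcdha1, Pcdha4 and Pcdhb1 most.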
